A study of Mus musculus with 18 samples.

Results

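The 10 genes described here are markers that cardiac biology uses to read stress in heart muscle. They are the natriuretic peptide genes Nppa and Nppb, the myosin heavy chains Myh6 and Myh7, the sarcomere isoform genes Acta1, Tnni1 and Myl4, the calcineurin regulator Rcan1, the LIM protein gene Fhl1 and the Xin-repeat gene Xirp2. They were chosen by symbol, and all 10 were found among the 46983 gene symbols of the deposited count table. Their levels are given in 18 RNA-seq libraries of mouse heart, 3 in each of 6 groups, sequenced on the Ion Proton. The mice were adults of 8 to 10 weeks. Their left anterior descending coronary artery was tied off, which causes a myocardial infarct, or they had a sham operation, and RNA was collected 6 weeks later.

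The genotypes were wild type control and Salv cKO, a conditional knockout of Salvador (Sav1), an adaptor protein of the Hippo kinase pathway. Translating ribosome affinity purification (TRAP) isolates ribosomes that carry a tag, and with them the RNA that they are reading, and here it was made specific to cardiomyocytes. TRAP RNA was sequenced from sham control, sham Salv cKO, infarcted control and infarcted Salv cKO hearts. Total whole-heart RNA was sequenced from infarcted control and infarcted Salv cKO hearts, with no sham group. The sources used here do not give the promoter that drives Cre, the source of the ribosome tag or whether controls carry that tag. The labels also do not say that the 3 libraries of a group came from separate animals. A p-value here thus measures only the spread of these libraries, which may be technical. Nor do the labels say whether TRAP and total RNA came from the same hearts, and the tests treat their libraries as separate.

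Cardiomyocytes make the atrial and B-type natriuretic peptides from Nppa and Nppb and release them when the wall of the heart is stretched. The peptides act through membrane guanylyl cyclase receptors and cyclic GMP, and they lower blood volume and pressure. In the ventricle both genes belong to the fetal gene program, which is active before birth, low in the healthy adult and raised again in hypertrophy and failure. The same program includes a shift from the fast alpha to the slow beta myosin heavy chain in rodents, and from cardiac to skeletal alpha-actin. The TRAP design asks how these genes behave in cardiomyocytes as against the whole heart, and the genotypes ask how they behave in the Salvador knockout.

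Library totals ran from 3240871 to 24135877 counts, and genes of the mitochondrial genome held 15.8% to 29% of counts in total RNA against 0.202% to 0.532% in TRAP RNA. Levels are counts per 1000000 counts of a library (CPM) with TMM scaling over all 18 libraries, given in the order of libraries 1, 2 and 3. Markers of cardiomyocytes, a list of 8 genes, summed to 88488 to 134740.5 CPM in TRAP RNA and 23159 to 39669 CPM in total RNA. Sav1 stood at 8.79, 6.24 and 6.69 CPM in sham control and at 2.65, 1.14 and 10.1 CPM in sham Salv cKO, so the library labelled sham Salv cKO 3 was above every sham control. In infarcted hearts Sav1 stood at 7.9, 6.75 and 5.01 CPM in control and 6.58, 6.76 and 4.02 CPM in Salv cKO TRAP RNA, and at 22.8, 20.0 and 17.3 CPM and 18.4, 12.1 and 17.2 CPM in total RNA. The genotypes overlapped in all of these, and no fit called Sav1 changed by genotype (edgeR adjusted p = 0.986, 0.596 and 0.53 for infarcted TRAP, sham TRAP and total RNA). Which exons are deleted is not stated, so the whole-gene count is a limited check of the labels. The same library labelled sham Salv cKO 3 and sham control 2 held 659 and 567 counts of 4 Y chromosome genes, and no other library had more than 7. Without them 84 genes passed by genotype after sham surgery in place of 291, and 63 were shared. Calls of named genes that use these libraries are also given without them.

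The order of the 10 genes differed between TRAP and total RNA. Levels of different genes were compared per kilobase of annotated exon. In infarcted control TRAP RNA Myh6 was highest at 3165 ± 479 CPM per kilobase (mean ± SD, n = 3 libraries, as throughout). Nppa followed at 685 ± 195, Acta1 at 509 ± 38.2, Nppb at 322 ± 26.3 and Myh7 at 177 ± 42 CPM per kilobase. The means of Nppa and Acta1 lay within their spread of each other. Rcan1 stood at 41.9 ± 0.373, Xirp2 at 20.5 ± 2.25 and Fhl1 at 17 ± 5.37 CPM per kilobase, the last pair within their spread. Myl4 at 1.17 ± 0.58 and Tnni1 at 0.637 ± 0.0618 CPM per kilobase closed the order. In infarcted control total RNA Nppa had the highest mean, 2820.1 ± 1798 CPM per kilobase, over Myh6 at 1468 ± 543, but the libraries of these genes spread too widely to separate them. Acta1 stood below Myh7 there, at 105 ± 52.3 against 497 ± 232 CPM per kilobase, the reverse of TRAP RNA. Rcan1 likewise stood below Xirp2, at 21.6 ± 5.19 against 47.9 ± 2.97 CPM per kilobase.

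**Figure D1:**
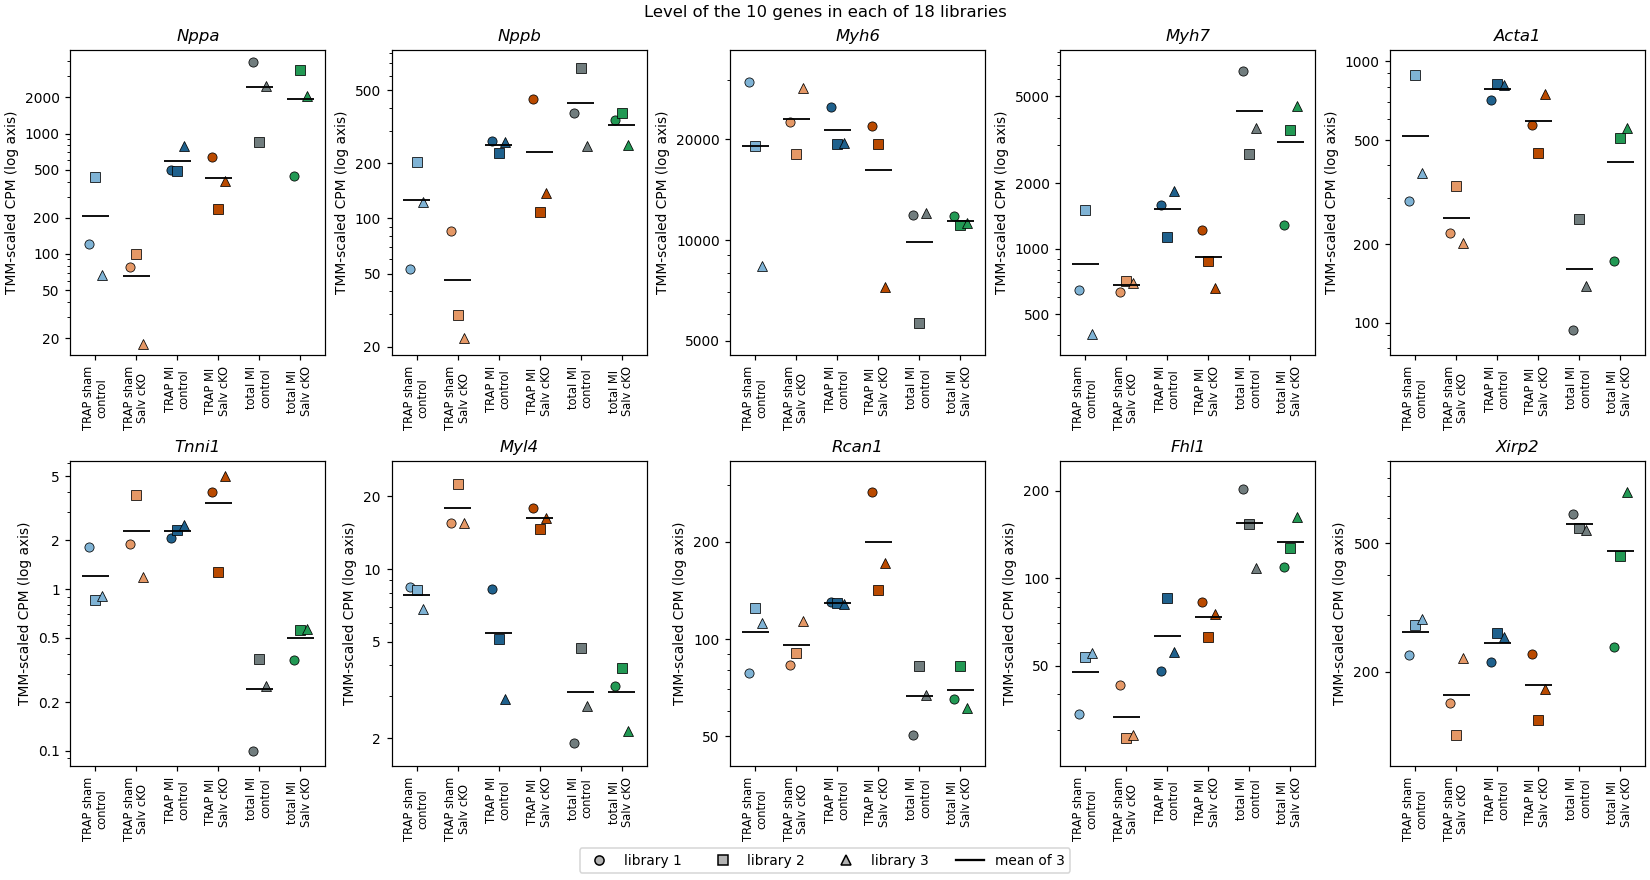
Level of each of the 10 genes in the 18 libraries, as TMM-scaled CPM on a log axis, with a circle, square and triangle for libraries 1, 2 and 3 of a group and a bar at the mean of 3; MI stands for myocardial infarction. Myl4 was higher in every Salv cKO TRAP library than in any control TRAP library of the same surgery, and Nppa in sham control 2 stood at 433 CPM against 122 and 67.2 CPM in the other sham controls.

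Few of the 10 genes passed the test for surgery or genotype within TRAP RNA, and most passed for TRAP against total RNA. A gene passes where its edgeR quasi-likelihood test had an adjusted p (Benjamini-Hochberg, over every gene of the fit) under 0.05. Infarction in control TRAP RNA changed 0 of 10, where 1.08% of 11393 genes passed. Of the 10, 0 had an unadjusted p below 0.05, beside 14.1% of genes, and DESeq2 called 0, beside 4.06% of genes. Infarction in Salv cKO TRAP RNA changed 2 of 10, Rcan1 and Fhl1, both higher, where 18.2% of genes passed and 7.56% passed as higher; DESeq2 called 5 of the 10, and 2273 of the 11393. Salv cKO and control differed for 1 of 10 in infarcted TRAP RNA, Myl4, where 0.334% of genes passed and 0.184% passed as higher; 2 had an unadjusted p below 0.05, beside 7.36% of genes. In sham TRAP RNA the genotypes differed for 0 of 10, where 2.55% passed. Of the 10, 4 had an unadjusted p below 0.05, beside 18.5% of genes, and DESeq2 called 1, Myl4, beside 5.28% of genes. In total RNA the genotypes differed for 0 of 9 tested genes, where 0.255% of 12945 genes passed. Of the 9, 1, Acta1, had an unadjusted p below 0.05, beside 13.8% of genes, and DESeq2 called 0, beside 1.1% of genes. TRAP against total RNA differed for 9 of 10, where 74.2% of 13267 genes passed; 5 were higher and 4 lower in TRAP RNA, beside 34.4% and 39.9% of genes, so most genes of the table differed there too. The median over all genes in that comparison was -0.15. Fold changes and differences in level are on the log2 scale throughout.

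In both genotypes 8 of the 10 genes had a positive fold change after infarction, beside 5460 (control) and 5805 (Salv cKO) of all 11393 genes. In control the 8 include Myh6, the fast alpha chain that the fetal program shifts away from. The median log2 fold change of the 10 was 0.46 in control and 0.8 in Salv cKO, beside -0.022 and 0.017 over all 11393 genes. In bulk RNA, fewer cells of a type and less RNA per cell cannot be told apart. With the scaling of the TRAP fit, every infarcted library was above every sham library for 3 of the 10 in control, Nppa, Nppb and Tnni1, and for 5 of the 10 in Salv cKO, Nppa, Nppb, Acta1, Rcan1 and Fhl1, beside 8.41% and 17.4% of all genes. At the levels printed here, scaled over all 18 libraries, Rcan1 in control had this order too, by a narrow gap. The difference between the genotypes in the response to infarction passed for 0 of 10 genes and for 0% of all genes; 2 of the 10 had an unadjusted p below 0.05, beside 12.6% of genes, and DESeq2 called 0 of the 10.

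**Figure D2:**
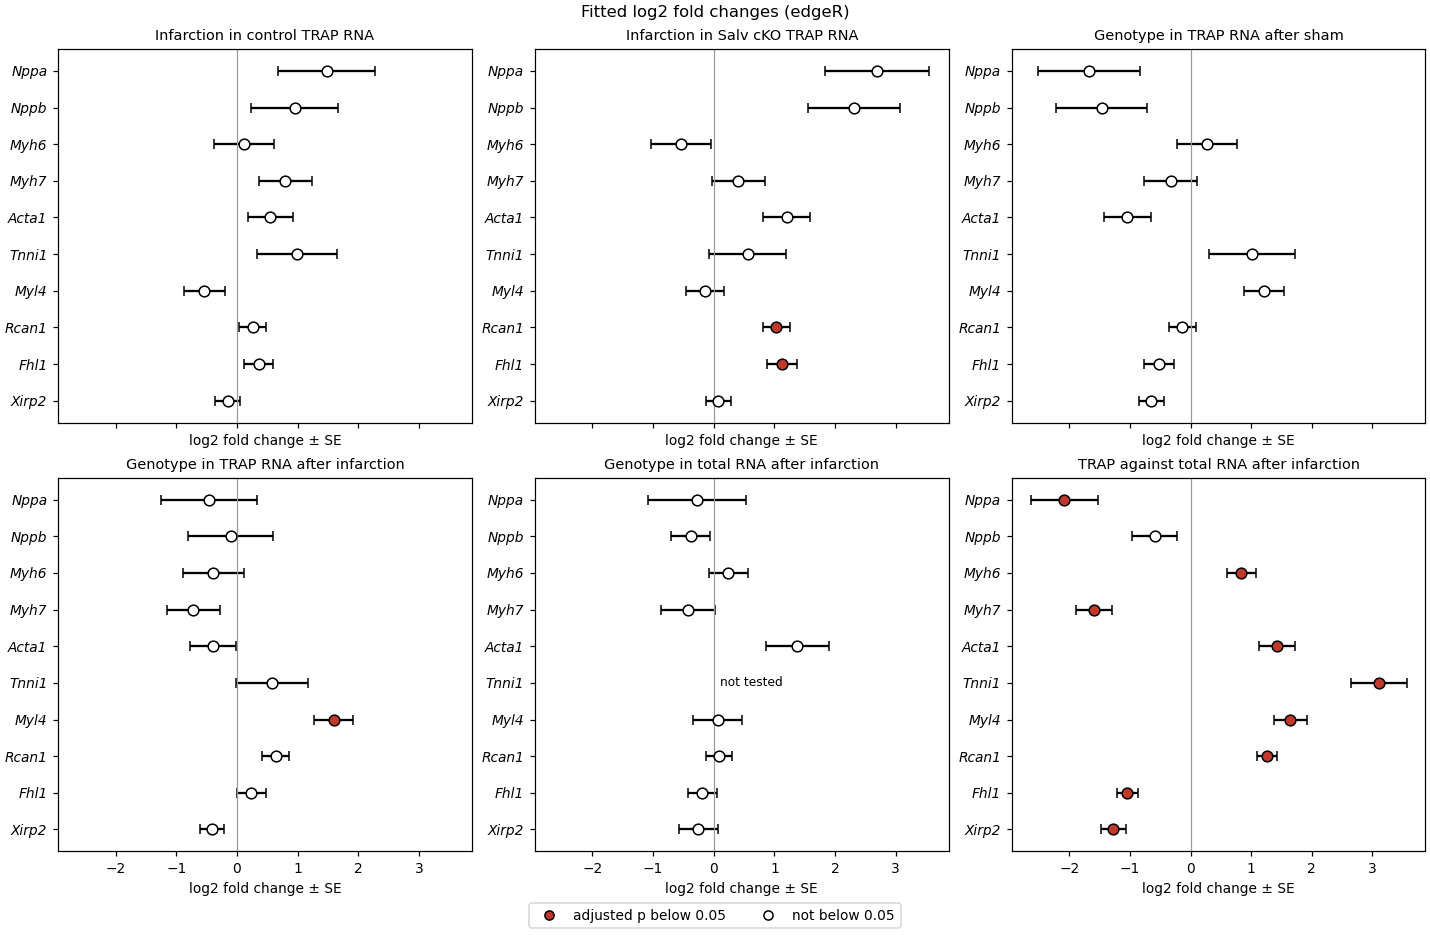
Fitted log2 fold changes of the 10 genes with their SE in 6 comparisons, filled red where the adjusted p was below 0.05; positive values mean higher after infarction, in Salv cKO or in TRAP RNA. Filled points appear for Rcan1 and Fhl1 after infarction in Salv cKO, for Myl4 by genotype after infarction, and for 9 genes in TRAP against total RNA.

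Nppa and Nppb were higher in every infarcted TRAP library than in the sham libraries of the same genotype. Nppa encodes the atrial natriuretic peptide and lies at chr4:148000722-148002079 (GRCm38, plus strand). In sham control TRAP RNA Nppa stood at 122, 433 and 67.2 CPM, and in infarcted control at 498, 492 and 788 CPM. The groups did not overlap, but sham control 2 came close to the lowest infarcted library and sat far above the other sham controls.

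In sham Salv cKO TRAP RNA Nppa stood at 78.5, 99.4 and 17.9 CPM, and in infarcted Salv cKO at 642, 235 and 403 CPM. These groups were further apart, with the library labelled sham Salv cKO 3 the lowest of all 18. The fitted change was 1.48 in control (SE 0.81, edgeR adjusted p = 0.48) and 2.69 in Salv cKO (SE 0.86, edgeR adjusted p = 0.0637), both on the log2 scale. Neither passed in edgeR, and DESeq2 called the change in Salv cKO (adjusted p = 0.0042). The difference between these changes was 1.22 (SE 1.14, edgeR adjusted p = 0.709). Without both libraries that held Y chromosome counts the edgeR test passed in control (2.64, adjusted p = 0.0194) and in Salv cKO (2.24, adjusted p = 0.0225).

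Nppb encodes the B-type natriuretic peptide, the clinical marker of heart failure. The gene lies at chr4:147985788-147987205 on the same strand, 13.5 kb from Nppa. Its level was 52.7, 203 and 124 CPM in sham control and 265, 228 and 262 CPM in infarcted control. It was 85.7, 29.7 and 22.4 CPM in sham Salv cKO and 448, 109 and 137 CPM in infarcted Salv cKO. Infarcted controls were close together, while infarcted Salv cKO 1 held more Nppb than libraries 2 and 3 of its group together.

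The fitted change of Nppb with infarction was 0.95 in control (SE 0.71, edgeR adjusted p = 0.636) and 2.32 in Salv cKO (SE 0.76, edgeR adjusted p = 0.069; DESeq2 adjusted p = 0.00975). The change in Salv cKO was 1.4 without infarcted Salv cKO 1 (adjusted p = 0.221) and 3.15 without sham Salv cKO 1, where it passed (adjusted p = 0.0393). It was 1.97 without the libraries that held Y chromosome counts (adjusted p = 0.188). Salv cKO against control gave -1.68 for Nppa and -1.46 for Nppb after sham surgery (edgeR adjusted p = 0.33 and 0.343), with overlapping libraries. These values shrank to -0.065 and -0.61 without the libraries that held Y chromosome counts. After infarction the genotype difference was -0.46 for Nppa and -0.1 for Nppb in TRAP RNA, and -0.28 and -0.38 in total RNA, none past the threshold.

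In total RNA of infarcted hearts Nppa stood at 3969.8, 859.7 and 2489 CPM in control and 445, 3373 and 2049 CPM in Salv cKO. Only total Salv cKO 1 was as low as the infarcted TRAP libraries. TRAP RNA held less Nppa than total RNA (log2 fold change -2.09, SE 0.55, adjusted p = 0.00739). Of the 8 cardiomyocyte markers 5 were higher in TRAP RNA and 2, Actc1 and Pln, were lower like Nppa, beside 34.4% and 39.9% of all genes. Nppb stood at 374, 663 and 247 CPM in control and 342, 376 and 252 CPM in Salv cKO total RNA, and its difference from TRAP RNA did not pass (log2 fold change -0.59, SE 0.36, adjusted p = 0.165). Without infarcted Salv cKO 1, the TRAP library with the highest Nppb, that difference was -1.06 and passed (adjusted p = 0.000163).

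Nppa is a gene of the atrium as well as of the stressed ventricle, so the atrial marker list was read beside it. It holds 8 genes and not Nppa or Myl4. The list summed to 59.6 to 92.1 CPM in total RNA and 71.7 to 120.2 CPM in TRAP RNA. Sln, an atrial regulator of the calcium pump, was listed at 0 in all 18 libraries. Bmp10, a growth factor of the atrial wall, had at most 6 counts in any library. Myl7, the atrial regulatory light chain, had at most 13 counts in a total RNA library, where Nppa had 6084 to 118476 counts. Dkk3, on the same list, stood higher, at 24.1 ± 8.48 CPM in control and 26.1 ± 12.5 CPM in Salv cKO total RNA. With infarction in Salv cKO TRAP RNA Dkk3 rose (log2 fold change 3.03, edgeR adjusted p = 0.0403), while 2 others of the list fell. Of all genes 7.56% passed as higher and 10.6% as lower there. Without the libraries that held Y chromosome counts the change of Dkk3 was 2.77 (edgeR adjusted p = 0.000316).

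Sequence around the starts of the natriuretic peptide genes is shown because every infarcted TRAP library held more of both transcripts than the sham libraries of its genotype. The windows are RefSeq promoters of GRCm38.p6, 250 bases before the RefSeq start of transcription, and all 10 genes matched, with 14 windows. Capitals mark matches to the GATA motif (AGATA or TGATA, each followed by A or G) and the TEAD motif CATTCC on either strand. GATA factors and TEAD factors, the partners of the Hippo effector YAP, are transcription factors of heart muscle. For Nppa the window is chr4:148000472-148000721, plus strand, and for Nppb the 27 bases at chr4:147985795-147985821, plus strand, that hold all 3 matches of its window. GENCODE starts Nppb further upstream than RefSeq does, so this stretch lies before the RefSeq start but inside the first exon of the gene at the position given above.
Nppa: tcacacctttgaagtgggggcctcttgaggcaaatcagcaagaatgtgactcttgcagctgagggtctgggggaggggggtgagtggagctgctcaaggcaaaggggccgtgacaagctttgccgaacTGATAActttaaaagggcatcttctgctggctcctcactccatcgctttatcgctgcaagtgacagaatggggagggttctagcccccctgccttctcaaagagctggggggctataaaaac
Nppb: GGAATGcagcTGATAAatcagAGATAA

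Nppa had 1 GATA match, which began 122 bases before the start, and no TEAD match in this window. Nppb had GATA matches from 95 and 84 bases before its RefSeq start and a TEAD match from 105 bases before it, read on the minus strand. Of 32536 promoters of this length 26.5% held a GATA match and 12.6% a TEAD match, so single matches are common. Among the 14 windows of the 10 genes each motif was found in 4.

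Other genes of the natriuretic peptide pathway were read beside the peptides. The list holds the third peptide gene Nppc, the processing enzymes Corin and Furin, the receptors Npr1, Npr2 and Npr3, the degrading enzymes Mme and Ide, the kinase Prkg1 and the phosphodiesterases Pde2a, Pde5a and Pde9a. Of its 11 genes tested, 0 passed with infarction in control (0 at an unadjusted p below 0.05, 0 in DESeq2) and 1, Ide, passed in Salv cKO, where it fell (log2 fold change -0.49, SE 0.16, adjusted p = 0.0394). Of all genes 1.08% passed in control and 18.2% in Salv cKO. Ide, which encodes insulin-degrading enzyme, was higher in Salv cKO than in control after sham surgery (log2 fold change 0.65, SE 0.16, adjusted p = 0.0366). Neither call of Ide held without the libraries that held Y chromosome counts (-0.43, adjusted p = 0.136 with infarction, and 0.55, adjusted p = 0.208 by genotype). The list's median log2 fold change with infarction was -0.047 in control and -0.087 in Salv cKO, near the -0.022 and 0.017 of all genes. In TRAP against total RNA 7 of the 11 were lower and 1, Ide, was higher (1.17), beside 39.9% and 34.4% of all genes. Among the lower genes were Pde2a (-1.38) and the guanylyl cyclase receptors Npr1 (-1.16) and Npr2 (-0.96), with adjusted p of 1.12e-08, 5.14e-06 and 1.23e-05. Endothelial markers were lower in TRAP RNA too, 6 of 6, at 123 to 184 CPM in infarcted TRAP RNA against 345 to 460.5 CPM in total RNA; their part in the list's difference was not tested.

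The myosin heavy chains differed between the RNA fractions in opposite directions. Myh6 encodes the fast alpha chain of the adult mouse ventricle and Myh7 the slow beta chain of the fetal and failing ventricle. They lie head to tail at chr14:54941921-54966927 and chr14:54970684-54994626, minus strand, 3.76 kb apart. In infarcted hearts Myh7 stood at 1585, 1132 and 1847 CPM in control and 1223, 874 and 657 CPM in Salv cKO TRAP RNA. In total RNA it stood at 6538, 2733 and 3575 CPM and 1288, 3496 and 4501 CPM. Total Salv cKO 1 was the one total RNA library within the range of the TRAP libraries.

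TRAP RNA held less Myh7 than total RNA (log2 fold change -1.59, SE 0.3, adjusted p = 0.000205) and more Myh6 (log2 fold change 0.84, SE 0.24, adjusted p = 0.00327). Myh7 made up 35.5, 32.6 and 22.8% of the counts of both genes in control total RNA and 9.85, 23.9 and 28.5% in Salv cKO total RNA. In infarcted TRAP RNA the share was 5.96, 5.53 and 8.65% for control and 5.28, 4.33 and 8.33% for Salv cKO. Every total RNA library held a larger share than any infarcted TRAP library. The means over 6 libraries were 25.5% ± 9.09 in total RNA and 6.35% ± 1.75 in TRAP RNA (SD; two-sided exact permutation p = 0.00216, the smallest that 6 against 6 can give; adjusted p = 0.026 over 24 tests of shares). The share needs no scaling between libraries.

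With infarction Myh7 rose past the threshold in neither genotype. In sham TRAP RNA it stood at 646, 1505 and 404 CPM in control and 634, 714 and 697 CPM in Salv cKO. Sham control 2 again reached the infarcted controls, while the sham Salv cKO libraries were close together. The fitted change was 0.8 in control (SE 0.44, edgeR adjusted p = 0.474) and 0.4 in Salv cKO (SE 0.44, edgeR adjusted p = 0.575). Without sham control 2 the change in control was 1.5 and passed (adjusted p = 0.00289). As a share of both myosins, Myh7 was 2.74, 3.79 and 2.39% in sham Salv cKO, below all infarcted Salv cKO libraries, and 2.13, 7.29 and 4.59% in sham control, overlapping the infarcted controls. The exact permutation p was 0.1 and 0.4, and 3 libraries against 3 cannot go below 0.1.

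Myh6 stood at 29606, 19134 and 8397 CPM in sham control and 25012, 19356 and 19499.9 CPM in infarcted control TRAP RNA. In Salv cKO it stood at 22474, 18126 and 28453 CPM after sham surgery and 21915, 19330.2 and 7236 CPM after infarction. Sham control 3 and infarcted Salv cKO 3 were low and the other 10 libraries similar. No comparison within TRAP RNA called Myh6, with log2 fold changes of 0.11 and -0.54 for infarction and 0.27 and -0.39 for genotype. Mhrt, an antisense transcript that overlaps Myh7, was counted separately with 81 to 2152 counts, up to 40.5% of the Myh7 counts in sham control 3. Whether counting used strand is not given in the sources used here, so some reads of this pair cannot be told apart.

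**Figure D3:**
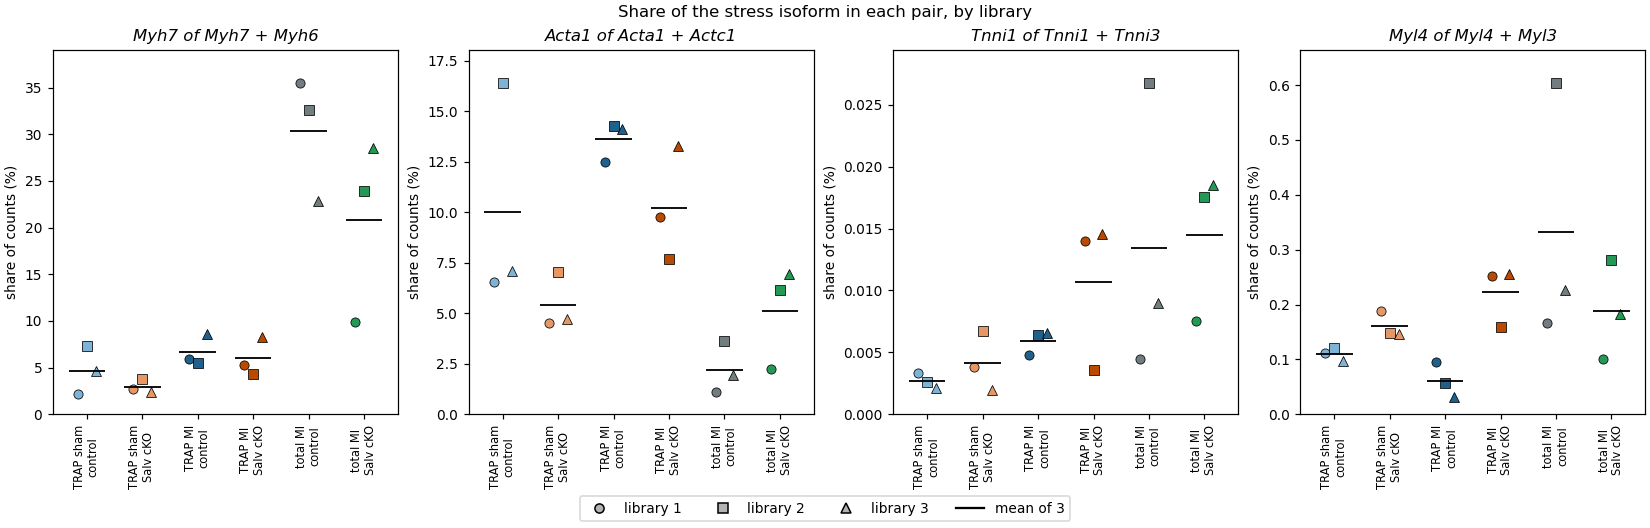
Share of Myh7 in Myh7 + Myh6, Acta1 in Acta1 + Actc1, Tnni1 in Tnni1 + Tnni3 and Myl4 in Myl4 + Myl3 counts, in percent, for each library with a bar at the mean of 3; MI stands for myocardial infarction. The Myh7 share was 25.5% in total and 6.35% in infarcted TRAP RNA, and the Acta1 share went the other way, 3.66% and 11.9%.

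Skeletal alpha-actin went the other way from Myh7 between the RNA fractions. Acta1 encodes the alpha-actin that the ventricle makes before birth and in hypertrophy in place of part of its cardiac actin, Actc1. It lies at chr8:123891769-123894751, minus strand. In infarcted hearts Acta1 stood at 715, 821 and 810.1 CPM in control and 569.8, 445 and 753 CPM in Salv cKO TRAP RNA. In total RNA it stood at 93.6, 249.6 and 138 CPM in control and 171, 507 and 558 CPM in Salv cKO. All control TRAP libraries were above all control total RNA libraries, while the Salv cKO libraries of the fractions overlapped.

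Acta1 was higher in TRAP than in total RNA (log2 fold change 1.43, SE 0.3, adjusted p = 0.000741). As a share of Acta1 and Actc1 counts it was 11.9% ± 2.66 in infarcted TRAP RNA and 3.66% ± 2.4 in total RNA (SD, n = 6), with no overlap (exact permutation p = 0.00216, adjusted p = 0.026). Actc1 itself was lower in TRAP RNA (log2 fold change -0.53, SE 0.15, adjusted p = 0.00231). In total RNA Acta1 had a genotype difference of 1.38 (SE 0.52, edgeR adjusted p = 0.319), higher in Salv cKO with overlapping libraries; the genotypes stood apart in total RNA for 0 of the 9 genes tested and for 19.4% of all genes. In infarcted TRAP RNA the genotype difference was -0.39 (edgeR adjusted p = 0.928). The test of whether the genotype difference depends on the fraction gave -1.81 (SE 0.59, edgeR adjusted p = 0.202), where 0.43% of 13267 genes passed and 14.8% had an unadjusted p below 0.05; DESeq2 called it (adjusted p = 0.0393), and edgeR did without total Salv cKO 1 (-2.16, adjusted p = 0.0345).

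After sham surgery Acta1 stood at 293, 885 and 375 CPM in control and 219, 334 and 203 CPM in Salv cKO TRAP RNA. Sham control 2 was the highest TRAP library of all 12 for this gene. In Salv cKO every infarcted library was above every sham library, and the fitted change was 1.2 (SE 0.39, edgeR adjusted p = 0.0536). It passed in DESeq2 (adjusted p = 0.0338) and, in edgeR, without the libraries that held Y chromosome counts (1.07, adjusted p = 0.00295). In control the change was 0.55 (edgeR adjusted p = 0.584), and without sham control 2 it was 1.19 and passed (adjusted p = 0.00299). Skeletal muscle fibre markers, a list of 11 genes, summed to 22.2 to 42.9 CPM in TRAP RNA and 13.3 to 32.1 CPM in total RNA, and Tnnc2, the fast skeletal troponin C, was listed at 0 in all 18 libraries.

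The Acta1 window is shown for its muscle motifs, chr8:123894776-123895025, minus strand, 5′ to 3′, with capitals for a CArG box and a TEAD match. The CArG box is the site of serum response factor (SRF), and CArG boxes were found in 1.48% of 32536 promoters and 2 of the 14 windows of these genes.
Acta1: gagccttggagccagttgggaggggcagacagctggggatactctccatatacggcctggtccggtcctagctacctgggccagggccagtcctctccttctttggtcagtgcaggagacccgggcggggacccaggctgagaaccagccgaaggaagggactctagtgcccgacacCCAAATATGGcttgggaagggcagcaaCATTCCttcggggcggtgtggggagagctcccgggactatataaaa
The CArG box began 73 bases and the TEAD match 46 bases before the RefSeq start, which lies upstream of the GENCODE start given above. Fhl1 held the other CArG box, 102 bases before one of its starts.

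Tnni1 and Myl4 are isoforms that the working ventricle gives up around birth, and both were scarce. Tnni1 encodes slow skeletal troponin I, the fetal heart's isoform, at chr1:135779434-135810989. It had 3 to 31 counts in a TRAP library and 3 to 5 counts in a total RNA library, where 3 counts are the floor, and it was not tested in the total RNA fit. Its TRAP level was 1.83, 0.851 and 0.913 CPM in sham control and 2.06, 2.31 and 2.51 CPM in infarcted control. In Salv cKO it was 1.9, 3.81 and 1.19 CPM after sham surgery and 4, 1.28 and 4.97 CPM after infarction. Infarcted controls were all above sham controls, but the change did not pass (log2 fold change 0.99, SE 0.66, adjusted p = 0.552). Tnni1 was higher in TRAP than in total RNA (log2 fold change 3.1, SE 0.46, adjusted p = 2.38e-06), a difference that rests on these few counts. Its partner Tnni3, the adult isoform, was higher by 3.69 (log2, adjusted p = 5.39e-13), and the Tnni1 share of the pair was 0.00832% in TRAP and 0.014% in total RNA (exact permutation p = 0.188).

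Myl4 was the one gene of the 10 that passed by genotype in TRAP RNA. It encodes the essential light chain of atrial and embryonic myosin, at chr11:104550663-104595753, plus strand. After infarction it stood at 8.24, 5.15 and 2.89 CPM in control and 17.9, 14.6 and 16.3 CPM in Salv cKO. After sham surgery it stood at 8.42, 8.23 and 6.85 CPM in control and 15.5, 22.5 and 15.5 CPM in Salv cKO. In both surgeries all Salv cKO libraries were above all controls, from 15 to 139 counts in a library.

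The fitted difference was 1.59 after infarction (SE 0.33, edgeR adjusted p = 0.0317) and 1.21 after sham surgery (SE 0.33, edgeR adjusted p = 0.0525; DESeq2 adjusted p = 0.0186). Leaving out any of infarcted control 2 and 3 or infarcted Salv cKO 1, 2 and 3 kept the difference after infarction at 1.31 to 1.67 but lifted the adjusted p to between 0.0526 and 0.18. Without infarcted control 1 it passed (2.02, adjusted p = 0.014). Without the libraries that held Y chromosome counts the sham difference was 1.36 (adjusted p = 0.125). Of the 10 genes Myl4 and Rcan1 had every infarcted Salv cKO library above every infarcted control, and Myl4 alone had this order after sham surgery. Of all 11393 genes 7.69% had every infarcted Salv cKO library above every infarcted control, and 9.95% had this order after sham surgery. The genotype differences of the 2 surgeries did not differ past the threshold (log2 fold change 0.39, SE 0.46, adjusted p = 0.779).

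In total RNA Myl4 stood at 1.91, 4.72 and 2.71 CPM in control and 3.29, 3.91 and 2.15 CPM in Salv cKO, with no genotype difference past the threshold (log2 fold change 0.064, SE 0.4, adjusted p = 0.958). The test of the fraction's effect on the genotype difference gave 1.49 (SE 0.54, edgeR adjusted p = 0.216). As a share of Myl4 and its ventricular partner Myl3, Myl4 was 0.222% ± 0.0553 in infarcted Salv cKO and 0.0611% ± 0.0326 in infarcted control TRAP RNA (exact permutation p = 0.1, the smallest possible). The other atrial light chain gene, Myl7, stood at 2.02 ± 0.621 CPM in infarcted control and 1.6 ± 0.965 CPM in infarcted Salv cKO, with overlapping libraries (log2 fold change -0.39, SE 0.57, adjusted p = 0.957). After sham surgery it stood at 4.37 ± 0.502 CPM in control and 9.36 ± 4.26 CPM in Salv cKO, and there all Salv cKO libraries were above all controls, as for Myl4, without passing the test (log2 fold change 1.11, SE 0.5, adjusted p = 0.232). It fell with infarction in Salv cKO (log2 fold change -2.62, SE 0.54, adjusted p = 0.00222), where Myl4 had a fold change of -0.15. Atrial markers summed to 71.7 to 91.9 CPM in infarcted Salv cKO and 96.9 to 120.2 CPM in infarcted control, the reverse order to Myl4, and to 91 to 113 CPM in sham Salv cKO and 103 to 119 CPM in sham control.

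A predicted antisense gene, Gm11665, overlaps Myl4 and had 12 to 50 counts in infarcted Salv cKO and 2 to 9 in infarcted control libraries. After sham surgery it had 1 to 6 counts in Salv cKO and 4 to 14 in control, unscaled for depth and against the order of Myl4. Another predicted gene on the opposite strand, Gm22000, overlaps Myl4 by 7740 bases. It had 0 to 5 counts in infarcted Salv cKO and 0 in every infarcted control library, and 1 to 4 counts in sham Salv cKO and 0 in every sham control library. In total RNA it had 2 to 20 counts, and in 1 library they came to 42.2% of the Myl4 counts. Since the counting strand is not stated, reads of Myl4 and these genes may be mixed. Their part in the Myl4 difference was not tested.

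Rcan1 and Fhl1 rose with infarction in Salv cKO cardiomyocyte RNA. Rcan1 encodes a regulator of the phosphatase calcineurin and is itself a transcriptional target of calcineurin and NFAT; it lies at chr16:92391953-92470867. In Salv cKO it stood at 83.4, 90.7 and 113 CPM after sham surgery and 285, 141 and 172 CPM after infarction. In control it stood at 78.7, 124 and 112 CPM and 130.2, 129.6 and 128 CPM. The infarcted controls were almost equal, and all infarcted Salv cKO libraries were above them, library 1 by the most.

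The change in Salv cKO was 1.03 (SE 0.23, edgeR adjusted p = 0.00369) and that in control 0.26 (edgeR adjusted p = 0.675). The call in Salv cKO held with each of its 6 libraries left out, at 0.69 to 1.24 (adjusted p 0.00265 to 0.0427). The lowest value was that without infarcted Salv cKO 1. The difference between genotypes in this response was 0.77 (SE 0.32, edgeR adjusted p = 0.328). The genotype difference after infarction was 0.64 (edgeR adjusted p = 0.458), and in total RNA it was 0.089 (edgeR adjusted p = 0.883). In total RNA Rcan1 stood at 50.5, 82.5 and 66.9 CPM in control and 65.3, 82.5 and 61.3 CPM in Salv cKO, below every infarcted TRAP library (log2 fold change 1.27, SE 0.17, adjusted p = 4.66e-07).

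Rcan1 is read from more than 1 start, and the inner start is known as the one that calcineurin and NFAT induce. Counts per gene do not separate the starts. The window of the inner start is shown for its NFAT matches, chr16:92400079-92400328, minus strand, 5′ to 3′, with capitals for the NFAT core TGGAAA read on the other strand.
Rcan1 inner start: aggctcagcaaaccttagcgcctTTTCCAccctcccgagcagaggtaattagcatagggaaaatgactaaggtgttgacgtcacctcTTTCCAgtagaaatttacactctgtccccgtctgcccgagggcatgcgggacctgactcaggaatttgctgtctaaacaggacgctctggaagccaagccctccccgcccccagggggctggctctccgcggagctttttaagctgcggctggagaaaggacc
The matches began 227 and 163 bases before the start. The window of the outer Rcan1 start held none. Of the 32536 promoters 18.6% held at least 1 match, and of the 14 windows of the 10 genes only 1, the one shown.

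Fhl1 encodes a LIM-domain protein of the sarcomere that takes part in stretch sensing and hypertrophy, at chrX:56731787-56793346. In Salv cKO TRAP RNA it stood at 42.8, 28.2 and 29 CPM after sham surgery and 83, 63.1 and 75.3 CPM after infarction. In control it stood at 34.1, 53.6 and 55.4 CPM and 47.9, 85.8 and 55.9 CPM, with overlap. The change was 1.12 in Salv cKO (SE 0.25, edgeR adjusted p = 0.00379; 1.02 to 1.36 with single libraries left out, adjusted p at most 0.0266) and 0.36 in control (edgeR adjusted p = 0.552). The difference between genotypes did not pass (log2 fold change 0.76, SE 0.35, adjusted p = 0.364). Without the library labelled sham Salv cKO 3 the changes in Salv cKO were 1.02 for Fhl1 and 1.17 for Rcan1, and both passed (adjusted p = 0.0266 and 0.00735). In total RNA Fhl1 stood at 203, 154 and 108 CPM in control and 109.6, 127 and 163 CPM in Salv cKO, above every infarcted TRAP library (log2 fold change -1.04, SE 0.17, adjusted p = 8.52e-06). Of all genes 25.7% had every TRAP library above every total RNA library, as Rcan1 and Tnni1 did, and 27.4% had the order of Fhl1.

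Xirp2 encodes a Xin-repeat protein that binds actin at intercalated discs and Z-lines; it lies at chr2:67446002-67526614. Its TRAP level was 226, 279.8 and 291 CPM in sham control and 161, 128 and 221 CPM in sham Salv cKO, with no overlap. After infarction it was 214, 264 and 257 CPM in control and 227, 142 and 177 CPM in Salv cKO. Neither genotype difference passed, at -0.64 after sham surgery (SE 0.2, edgeR adjusted p = 0.0873) and -0.41 after infarction (edgeR adjusted p = 0.695). Without the libraries that held Y chromosome counts the sham difference was -0.83 (adjusted p = 0.0955). Every sham control library above every sham Salv cKO library was the order of 11% of all genes. With infarction Xirp2 had fold changes of -0.15 in control and 0.077 in Salv cKO. TRAP RNA held less of it than total RNA (log2 fold change -1.27, SE 0.2, adjusted p = 8.61e-06), where it stood at 615, 559 and 549 CPM in control and 239, 457 and 721 CPM in Salv cKO. Total Salv cKO 1 was again the low library of its group.

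Sham control 2 was the highest sham control for 5 of the 10 genes, Nppa, Nppb, Myh7, Acta1 and Rcan1. How often it was the highest over all genes was not counted, so 5 of 10 cannot be set against a share. It was 4.58 times the mean of the other sham controls for Nppa, 2.87 times for Myh7, 2.65 times for Acta1, 2.3 times for Nppb and 1.3 times for Rcan1. It is 1 of the 2 libraries with Y chromosome counts. This library also had the highest fibroblast marker sum of the 12 TRAP libraries, 1826 CPM against 881 and 949.9 CPM in the other sham controls. Its cardiomyocyte marker sum, 88488 CPM, was the lowest of the 12. Their part in its stress gene levels was not tested. With it left out, the change with infarction in control was 2.63 for Nppa and 1.46 for Nppb. Neither was past the threshold (edgeR adjusted p = 0.123 and 0.442), while Myh7 and Acta1 passed. Larger changes there follow from leaving out the highest sham control of these genes, so they are no separate result. Of all genes 628 passed in that setting, in place of 123 with all libraries.

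**Figure D4:**
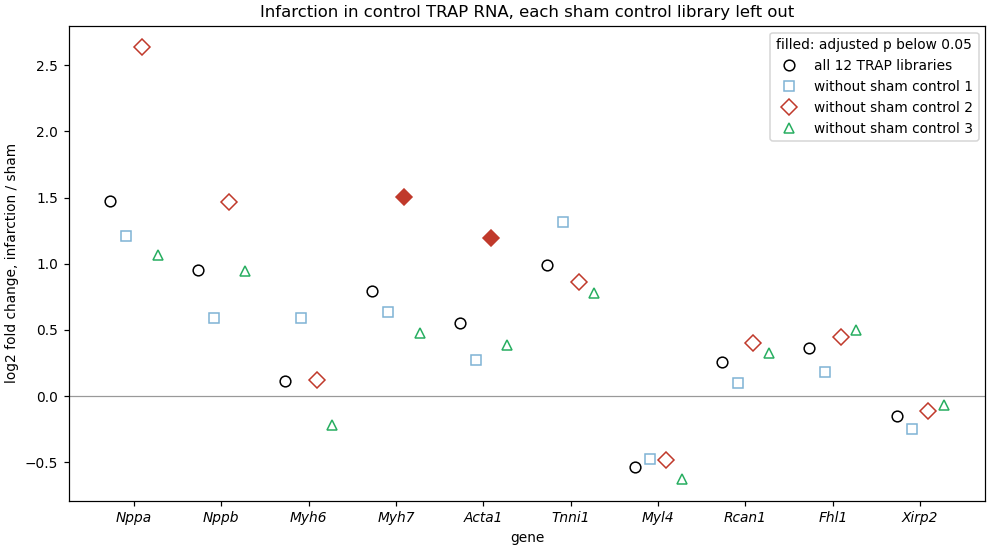
Log2 fold change with infarction in control TRAP RNA for each gene, from all 12 TRAP libraries and with each sham control library left out; filled symbols have an adjusted p below 0.05. Only leaving out sham control 2 gave filled symbols, for Myh7 at 1.5 and Acta1 at 1.19.

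Related gene lists were read over the same comparisons. Of 16 other cardiac stress and hypertrophy markers tested, 0 passed with infarction in control and 3 rose in Salv cKO, beside 1.08% and, as higher, 7.56% of all genes. Those were Fhl2, the sister gene of Fhl1 (0.71, adjusted p = 0.00454), Xirp1, the sister gene of Xirp2 (1.05, adjusted p = 0.00572), and Cyr61, a matricellular gene and YAP target (1.65, adjusted p = 0.00874). In control 4 of the 16 had an unadjusted p below 0.05 and DESeq2 called 3, beside 14.1% and 4.06% of all genes. The median over the 16 was 0.44 in control and 0.57 in Salv cKO. Of them 13 and 14 were positive, beside 5460 and 5805 of all 11393 genes. Fhl1 and Fhl2 thus both passed, and Xirp2 (0.077) did not where Xirp1 did.

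Of 12 adult and partner sarcomere genes, 4 fell with infarction in Salv cKO, beside 10.6% of all genes. They were the ventricular light chains Myl2 (-0.61) and Myl3 (-0.61), troponin I Tnni3 (-0.79) and Myl7 (-2.62), with adjusted p of 0.00961, 0.027, 0.00328 and 0.00222. In control 0 of the 12 passed. Of them 3 had an unadjusted p below 0.05 and DESeq2 called 1, beside 14.1% and 4.06% of all genes. Among 24 regulators of the calcineurin, CaMK, MEF2, GATA, SRF and TEAD pathways 3 passed in Salv cKO, beside 18.2% of all genes. Srf rose in Salv cKO (0.88, adjusted p = 0.00837), and Mef2c (-1.54, adjusted p = 0.00023) and Hdac4 (-1.11, adjusted p = 0.000583) fell. In control 0 of the 24 passed. Of them 9 had an unadjusted p below 0.05 and DESeq2 called 3, beside 14.1% and 4.06% of all genes. Mef2c is a transcription factor of muscle genes and Hdac4 a deacetylase that represses MEF2 factors. Of 8 partners of Xin and FHL proteins 2 rose, beside 7.56% of all genes. Nrap rose (1.56, adjusted p = 0.000153) and so did Myoz2, a calcineurin-binding Z-disc protein (0.46, adjusted p = 0.0443). In control 0 of the 8 passed. Of them 3 had an unadjusted p below 0.05 and DESeq2 called 1, beside 14.1% and 4.06% of all genes. Nrap, an actin-anchoring protein of the intercalated disc, was lower in Salv cKO than in control after sham surgery (log2 fold change -0.996, SE 0.22, adjusted p = 0.0206), which did not pass without the libraries that held Y chromosome counts (-0.85, adjusted p = 0.158). Without those libraries the change of Myoz2 with infarction in Salv cKO did not pass either (0.36, adjusted p = 0.175). The calls of Fhl2, Xirp1, Cyr61, Myl2, Myl3, Tnni3, Myl7, Srf, Mef2c, Hdac4 and Nrap with infarction in Salv cKO still passed, with adjusted p from 0.000123 to 0.0343. Tead1 encodes a DNA-binding partner of YAP. It was the one regulator of 25 whose genotype difference depended on the RNA fraction in edgeR (log2 fold change 1.2, SE 0.25, adjusted p = 0.0301). Of all 13267 genes 0.43% passed there. DESeq2 called 3 of the 25, beside 2.03% of all genes.

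By genotype few genes of these lists passed. After infarction 0 genes of the 5 lists passed in TRAP RNA; 2 to 5 a list had an unadjusted p below 0.05, and DESeq2 called 1, a stress marker, beside 7.36% and 0.614% of all genes. In total RNA 0 passed, 1 to 5 a list had an unadjusted p below 0.05, beside 13.8% of all genes, and DESeq2 called 0. Of the 11 sarcomere partner genes tested in total RNA 10 had a positive genotype difference, with a median of 0.6 beside 0.016 over all genes, and 5 had an unadjusted p below 0.05.

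Between the fractions, the adult sarcomere genes Tnni3 (3.69), Myl2 (2.83) and Mybpc3 (2.09) were higher in TRAP RNA, 9 of the 12 partner genes in all, and 3 were lower, among them Ttn, the giant protein titin (-2.64), and Actc1. Of all genes 34.4% passed as higher and 39.9% as lower in TRAP RNA, the shares for every count given here. Of the 25 regulators tested between the fractions 7 were higher and 10 lower. Nkx2-5 (2.65) and Hdac4 (1.91) were among the higher, and Gata4 (-1.56) and Hdac9 (-2.07) among the lower. Of 17 stress markers 7 were higher, with Csrp3, a stretch-related Z-disc protein (1.82), and 4 lower, with Myc (-3.23). The actin crosslinker Actn2 (2.02) and Synpo2l (1.9) were the 2 of 8 Xin and FHL partners higher in TRAP RNA, and 3 were lower. Transcripts of the same sarcomere thus stood on both sides, as Myh6 and Acta1 against Myh7 and Xirp2 did, and so did genes of the whole table.

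Fibroblast markers had positive fold changes with infarction in Salv cKO for 7 of 8 genes, beside 5805 of all 11393 genes. Lum passed (0.92, adjusted p = 0.0228), also without the libraries that held Y chromosome counts (0.72, adjusted p = 0.0416). The summed level of the fibroblast markers was 801 to 973 CPM in sham and 799.5 to 1575 CPM in infarcted Salv cKO TRAP RNA, which overlap. Leukocyte markers summed to 377 to 479.8 CPM and 266 to 387 CPM, and C1qa fell (-0.84, adjusted p = 0.0124; -0.89 and 0.0145 without those libraries). In infarcted control the fibroblast sum was 821 to 1417 CPM. The cardiomyocyte sums stood apart in Salv cKO, at 118236 to 134740.5 CPM after sham surgery and 92310.1 to 105934 CPM after infarction. So did the sums of 4 ventricular cardiomyocyte markers, at 53459.7 to 74301 CPM and 36009 to 44957 CPM. Single genes went both ways, where 10.6% of all genes passed as lower and 7.56% as higher. Of the 8 cardiomyocyte markers 3 fell and 1, Pln, rose (0.5, edgeR adjusted p = 0.0388). Of the 4 ventricular markers 2 fell and 1, Irx4, rose (0.69, edgeR adjusted p = 0.0399). Neither rise passed without the libraries that held Y chromosome counts (0.41 and 0.74, adjusted p = 0.128 and 0.0775). In control the cardiomyocyte sums overlapped, at 88488 to 122493 CPM and 98020 to 110724 CPM. The part of these cell types in the levels of Rcan1 and Fhl1 was not tested.

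The genes with the TRAP profile closest to each stress marker were found over the 12 TRAP libraries, by the root mean square distance of log2 CPM centred on each gene's mean. The 5 nearest to Nppa were Dkk3 (0.586), Pdgfrl (0.622), Gng8 (0.668), Fbln7 (0.689) and Siah2 (0.693), and Nppb lay at 0.79. In sham Salv cKO libraries Pdgfrl, Fbln7 and Siah2 went down to 0 and Gng8 to 0.298 CPM, below the floor of 3 counts. The distances of these genes thus rest in part on very few counts. Nppa's own profile had an SD of 1.65 log2 units. Dkk3 is also on the atrial list. The 5 nearest to Nppb were Tnfrsf12a (0.413), Ggact (0.481), Igfbp7 (0.509), Fn1 (0.538) and Eno1 (0.57), against an SD of 1.31 log2 units. In sham Salv cKO Ggact went down to 0 and Igfbp7 to 0.762 CPM, also below the floor. The 5 nearest to Myh7 were Adarb1 (0.317), Ptgis (0.32), Gsn (0.326), Mt2 (0.332) and Col6a2 (0.338), against an SD of 0.661 log2 units. These are descriptions over libraries that share depth and group, with no test.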

How the data were processed

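RNA-seq was analysed in 18 libraries, and the counts are whole numbers per gene symbol as deposited by the authors. The submitters' processing notes name STAR 2.5, mm10 and DESeq2; the sources used here give no counting tool, annotation or strand setting. The series table and the files of single libraries held the same counts in all 18 columns, and 0 sample columns were unused. In R 4.3.3, edgeR 4.0.16 fitted the 12 TRAP libraries (11393 genes after filterByExpr), the 6 total RNA libraries (12945) and the 12 libraries of infarcted hearts (13267), each with TMM scaling and the robust quasi-likelihood test (two-sided, Benjamini-Hochberg). DESeq2 1.42.0, RLE size factors, no filter on low counts, a replicate block, the 2 groups alone and left-out libraries were alternatives. The fits were tested on simulated counts.

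Shares of isoforms were compared by exact permutation tests over libraries, two-sided and adjusted over 24 tests. Printed CPM levels were scaled over all 18 libraries, so a fitted fold change can differ from their ratio. A floor of 3 counts in a library equals 0.101 to 1.14 CPM and covers counting error only. Exon lengths and positions are from GENCODE M21 (GRCm38), and promoters from RefSeq. The 10 genes and all lists were chosen with earlier results of these data known. All 10 genes are named whatever their result, with up to 4 passing genes a list and comparison and the 5 nearest profiles.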

Additional observations from a re-analysis of the deposited data

How the results depend on the processing

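The counts of passing genes moved by over 1.5 times in most comparisons, and the cause was not tested. With all libraries 38 genes passed for genotype in TRAP RNA after infarction, 291 for genotype in TRAP RNA after sham surgery, 123 for infarction in control, 2069 for infarction in Salv cKO, 0 for genotype by surgery, 33 for genotype in total RNA, 57 for genotype by RNA fraction and 9847 for TRAP against total RNA. With DESeq2 they were 72 (genotype in TRAP RNA after infarction), 602 (genotype in TRAP RNA after sham surgery), 462 (infarction in control), 96 (genotype by surgery), 149 (genotype in total RNA), 273 (genotype by RNA fraction). With no filter they were 106 (genotype in TRAP RNA after infarction), 651 (genotype in TRAP RNA after sham surgery), 566 (infarction in control), 160 (genotype by surgery), 363 (genotype in total RNA), 302 (genotype by RNA fraction). With the 2 groups fitted alone they were 58 (genotype in TRAP RNA after infarction), 127 (genotype in TRAP RNA after sham surgery). Without both libraries with Y chromosome counts they were 84 (genotype in TRAP RNA after sham surgery), 673 (infarction in control). With the replicate block they were 408 (infarction in control), 59 (genotype in total RNA), 31 (genotype by RNA fraction). With single libraries left out the ranges were 22 to 35 (genotype in TRAP RNA after infarction), 104 to 378 (genotype in TRAP RNA after sham surgery), 0 to 628 (infarction in control), 1100 to 2005 (infarction in Salv cKO), 0 to 18 (genotype by surgery), 17 to 45 (genotype in total RNA), 16 to 140 (genotype by RNA fraction), 9702 to 9950 (TRAP against total RNA). For infarction in control 628 passed without sham control 2 and 0 without sham control 3 or infarcted control 1; for infarction in Salv cKO the low ends were without infarcted Salv cKO 1 and, at 1295, the library labelled sham Salv cKO 3. Of the 10 genes, 1 passed for genotype in TRAP RNA after infarction (0 to 1 with single libraries left out), 0 passed for genotype in TRAP RNA after sham surgery (1 with DESeq2, 2 with no filter, 1 with the replicate block, 0 with single libraries left out), 0 passed for infarction in control (3 without both libraries with Y chromosome counts, 0 to 2 with single libraries left out). Likewise 2 passed for infarction in Salv cKO (5 with DESeq2, 4 without both libraries with Y chromosome counts, 2 to 3 with single libraries left out), 0 passed for genotype in total RNA (1 with no filter, 1 with the replicate block, 0 with single libraries left out), 0 passed for genotype by RNA fraction (1 with DESeq2, 0 to 1 with single libraries left out). 

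Log2 fold changes that changed sign with 1 library left out, none of them past the threshold with all libraries, ranged for genotype in TRAP RNA after infarction Nppb -1.02 to 0.241; for genotype in TRAP RNA after sham surgery Myh6 -0.0915 to 0.734, Myh7 -0.67 to 0.377, Rcan1 -0.3001 to 0.00249. They ranged for infarction in control Myh6 -0.216 to 0.588, for infarction in Salv cKO Myl4 -0.247 to 0.0438, Xirp2 -0.112 to 0.307, for genotype by surgery Tnni1 -0.762 to 0.133, for genotype in total RNA Nppa -0.934 to 0.24, Nppb -0.657 to 0.107, Myh6 -0.0305 to 0.42, Myl4 -0.238 to 0.504, Rcan1 -0.0922 to 0.287, Fhl1 -0.389 to 0.0277, Xirp2 -0.713 to 0.0662, for genotype by RNA fraction Nppa -0.72 to 0.461, Nppb -0.669 to 0.591, Myh7 -0.722 to 0.0628, Xirp2 -0.495 to 0.25. Differences in share (percentage points) that changed sign were those of Myh7 (genotype in TRAP RNA after infarction, -1.91 to 0.236) and Tnni1 (genotype in total RNA, -0.00336 to 0.00779). Without the libraries with Y chromosome counts the sign changed for Myh7 (genotype in TRAP RNA after sham surgery, 0.367), Nppa (genotype by surgery, -0.398), Acta1 (genotype by surgery, -0.13). Over all alternatives of single values 1191 kept their direction and their side of the threshold, 23 came to pass, 5 no longer passed, all for Myl4 by genotype after infarction, and 39 changed sign. Of the 1191, 1017 belong to fold changes of single genes and the rest to isoform shares. Shares of at most 3 libraries against 3 cannot go below an exact permutation p of 0.1, so their side of the threshold was fixed in advance. No label ties a replicate number to an animal or day. Deviations of libraries with the same number had a mean correlation of -0.0017 in TRAP RNA (-0.157 to 0.114) and -0.0396 in total RNA, so the block is given only here. Levels of Tnni1, with 3 to 31 counts a library, are limited by depth.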
